A study of Rattus norvegicus with 47 samples.

Results

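The proteasome genes were taken as every gene of the count table whose symbol starts with Psm, followed by a letter from a to g and a digit, which gave 50 of 22525 genes. Of these, 48 had enough counts to be tested; Psma8, the testis form of an alpha subunit, and Psmb11, a beta subunit of the thymus, did not. The rule also takes in Psmc3ip, a cofactor of meiotic recombination, and Psme3ip1, a binding partner of Psme3, which are not subunits and are kept apart as matches by symbol. The samples are kidney RNA libraries of 47 rats, taken 12 months after surgery. Rats had been assigned at random to 1 of 6 implanted metals. These were lead (Pb), cobalt (Co), tungsten (W), aluminium (Al), depleted uranium (DU) and, as the inert reference, tantalum (Ta). There were 8 libraries for W, Co, Al, DU and Ta and 7 for Pb, each with an animal number of its own, and strain, sex and age are not given in the sources used here. No group went without a pellet, so every comparison is with kidneys of animals that carried Ta. Animals of 1 metal carry an unshared run of numbers, so handling order and metal cannot be told apart.

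The proteasome is the barrel-shaped protease that breaks down proteins tagged with ubiquitin. Alpha rings form the gate of the core and beta rings hold the active sites, carried by Psmb5, Psmb6 and Psmb7. A cap with a base of ATPases and a lid recognises, unfolds and feeds in substrates, whereas activators such as Psme1 and Psme2 open the core without ubiquitin. Interferon and immune cells bring in Psmb8, Psmb9 and Psmb10, which take the places of Psmb5, Psmb6 and Psmb7 in newly made cores and alter the peptides offered on MHC class I. In many cells, loss of proteasome activity leads to transcription of the core and cap genes together through Nfe2l1, which binds antioxidant response elements.

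The promoters of the catalytic genes and of Psme2 are shown because the immune subunits take the places of the constitutive ones, and their levels are set side by side here. Each window runs from 110 bases before to 10 bases after the RefSeq start of the gene in build GRCr8, 5′ to 3′ on the strand of the gene. The windows lie at chr15:32047370-32047489, minus strand for Psmb5, at chr10:55737778-55737897, plus strand for Psmb6 and at chr3:42827461-42827580, minus strand for Psmb7. Those of the immune genes lie at chr20:4657022-4657141, minus strand for Psmb8, at chr20:4668890-4669009, plus strand for Psmb9 and at chr19:50743283-50743402, minus strand for Psmb10, and that of Psme2 at chr15:33052742-33052861, minus strand. Capitals mark matches, on either strand, to the antioxidant response element TGACNNNGC, to the ETS factor motif CCGGAAG or to the interferon response element, which was searched as GAAA, any 2 bases and GAAA.
Psmb5: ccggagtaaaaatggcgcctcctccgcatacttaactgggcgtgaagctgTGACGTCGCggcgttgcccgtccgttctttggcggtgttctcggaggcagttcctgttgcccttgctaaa
Psmb6: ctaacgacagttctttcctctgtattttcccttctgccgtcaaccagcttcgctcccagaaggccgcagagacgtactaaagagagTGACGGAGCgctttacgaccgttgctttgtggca
Psmb7: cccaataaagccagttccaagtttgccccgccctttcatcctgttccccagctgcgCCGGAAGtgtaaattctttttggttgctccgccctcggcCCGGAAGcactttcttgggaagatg
Psmb8: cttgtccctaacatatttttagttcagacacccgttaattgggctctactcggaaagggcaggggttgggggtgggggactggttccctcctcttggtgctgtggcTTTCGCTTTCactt
Psmb9: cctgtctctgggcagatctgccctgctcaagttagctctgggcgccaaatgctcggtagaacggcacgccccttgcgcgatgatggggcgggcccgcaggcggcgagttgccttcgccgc
Psmb10: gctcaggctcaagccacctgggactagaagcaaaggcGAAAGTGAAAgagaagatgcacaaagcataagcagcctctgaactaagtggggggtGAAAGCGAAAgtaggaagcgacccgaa
Psme2: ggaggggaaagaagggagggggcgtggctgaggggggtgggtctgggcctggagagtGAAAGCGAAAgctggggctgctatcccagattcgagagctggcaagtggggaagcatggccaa

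In these windows Psmb5 and Psmb6 each held 1 antioxidant response element match, at 60 and 24 bases before the start, and Psmb7 held 2 ETS matches. Psmb8 had 1 interferon element match, Psmb10 had 2 and Psme2 had 1, and the Psmb9 window held none of the 3 motifs. Over the full windows of 300 bases, found for 45 of the 50 genes, the ETS motif occurred in 17 (37.8%), against 15.5% of the promoters of 12023 tested genes. The interferon element occurred in 7 of 45 (15.6%) against 2.91%, and the antioxidant response element in 8 of 45 (17.8%) against 14.2%. A match describes these letters and is not a binding site. In the RefSeq gene order Psmb8 lies between Tap2 and Tap1, which carry peptides into the endoplasmic reticulum, and Psmb9 lies next to Tap1.

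Total counts ranged from 21604755 to 35775818 per library. Kidney identity was checked with 7 defining genes of tubule and podocyte, all counted in every library; the lowest count of Umod, the uromodulin of the thick limb, was 13116. Levels are given as CPM, the counts scaled to library size with TMM factors, as means ± SD or as the lowest, median and highest library; they are not divided by gene length, so levels are compared between groups and not between genes. Fold changes are on the log2 scale against Ta with their standard error (SE), and a gene is called higher or lower at an adjusted p under 0.05 in edgeR's quasi-likelihood test. The 5 comparisons share the 8 Ta libraries. In bulk kidney, fewer cells of a type and less RNA per cell cannot be told apart.

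Proteasome genes were higher in kidneys with Pb pellets than with Ta, and fewer of them passed the test in Co, Al, DU and W. With Pb, 39 of the 48 genes tested were called higher, against 24.5% of all 15868 genes tested, and 3 were called lower, against 29.2%. With Co, 35 were called higher and 0 lower, against 13.6% and 12.2% of all genes. With Al, 30 were higher and 1 lower, against 12.8% and 12.4%. With DU, 26 were higher and 0 lower, against 7.89% and 7.39%, and with W, 5 were higher and 0 lower, against 1.42% and 0.366%. The 5 genes called with W were Psmb5, Psmb7, Psmc5, Psmd6 and Psmg3, and none of them stayed called in every fit that leaves out 1 library: the count was 0 without W replicate 5 or 8 and 12 without W replicate 3.

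The median log2 fold change of the 48 genes was 0.65 with Pb, 0.33 with Co, 0.33 with Al, 0.27 with DU and 0.23 with W. Over all genes tested the medians lay between -0.07 and -0.01. For 36 of the 48 genes every Pb library lay above every Ta library, which held for 13.0% of all genes. At an unadjusted p under 0.05, 30 of the 48 genes passed with W, 39 with Co, 35 with Al, 43 with Pb and 31 with DU. Over all 15868 genes these numbers were 3448, 6111, 5835, 9219 and 4533. Of the members that passed in this way, 30, 38, 34, 40 and 30 were higher. The test across all 6 groups called 43 of 48 (58.4% of all genes), and the test among the 5 metals without Ta called 37 of 48 (53.2% of all genes).

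**Figure D1:**
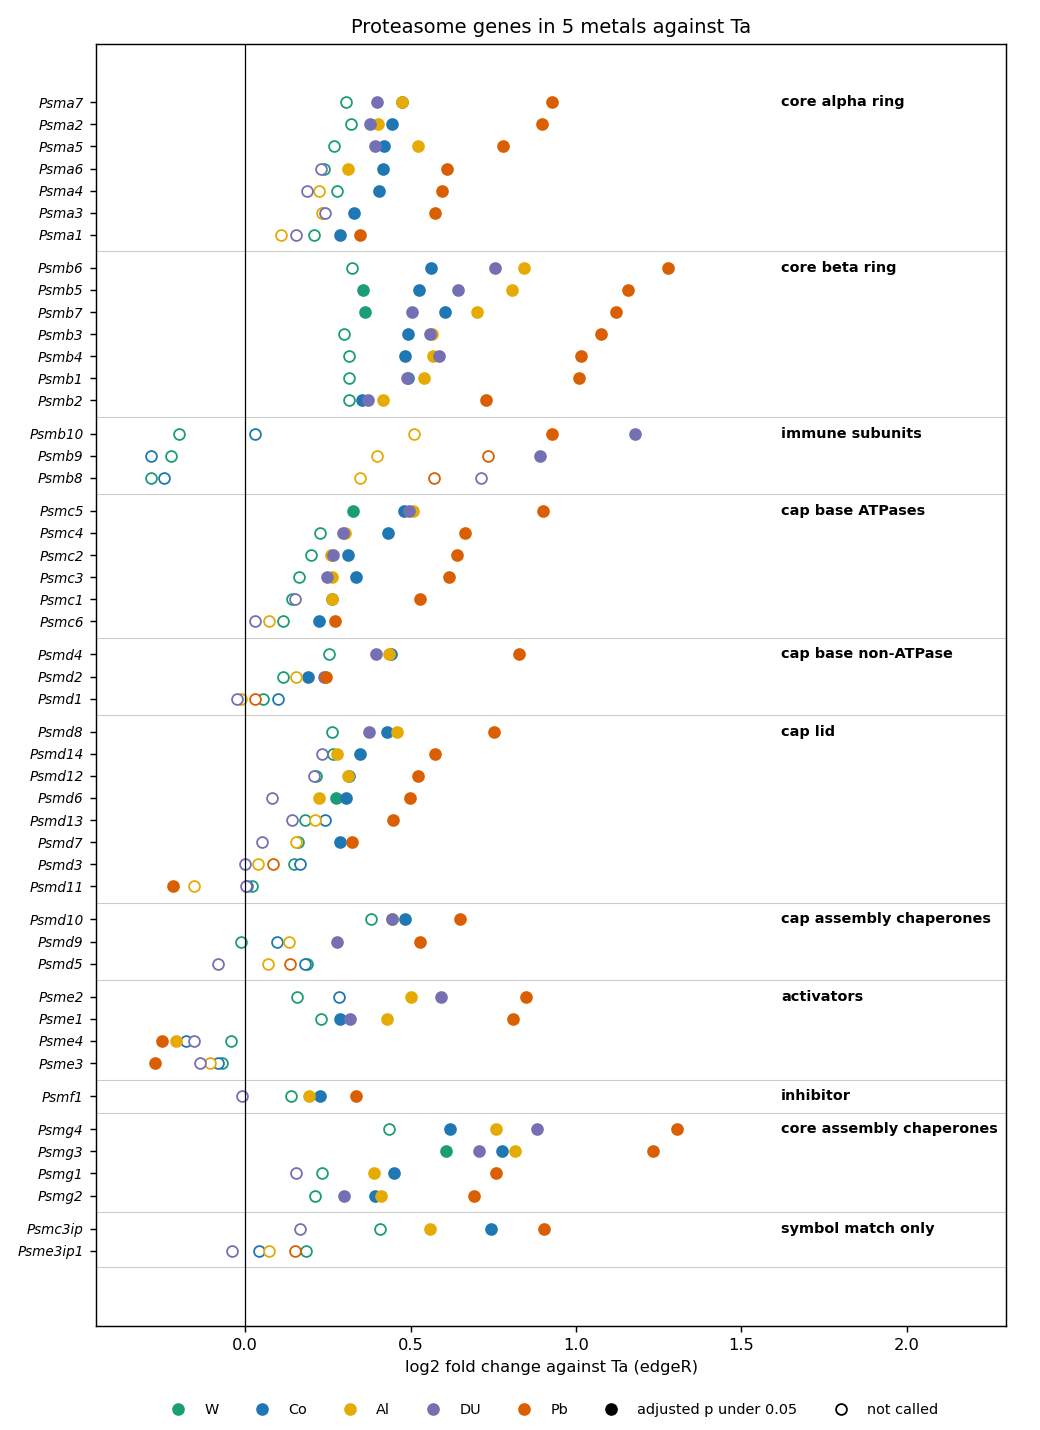
Log2 fold change against Ta (horizontal axis) of the 48 tested proteasome genes, grouped by role, with 1 point per metal; filled points passed an adjusted p under 0.05 in edgeR's test and open points did not. The Pb points lie farthest to the right in most rows, from -0.27 for Psme3 to 1.31 for Psmg4.

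All 14 constitutive core genes tested were higher with Pb and with Co; 11 were higher with Al, 10 with DU and 2 with W, and none was lower in any metal. Their median log2 fold change was 0.91 with Pb (0.35 to 1.28), 0.50 with Al, 0.46 with Co, 0.40 with DU and 0.31 with W. The 7 beta ring genes had a median of 1.08 with Pb and the 7 alpha ring genes 0.61. Every beta ring gene was called higher with Co, Al, Pb and DU. Among the alpha ring genes 7 were called with Co and Pb, 4 with Al, 3 with DU and 0 with W. The shares of all genes called higher were 24.5% with Pb, 13.6% with Co, 12.8% with Al, 7.89% with DU and 1.42% with W.

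Psma7, an alpha subunit, measured 147 (lowest), 156 (median) and 222 (highest) CPM in Ta and 292, 316 and 369 in Pb. The Pb and Ta libraries did not overlap, and the log2 fold change was 0.93 ± 0.10 (SE; adjusted p = 3.5e-10). In Co the mean was 232 ± 36.5 CPM (SD, n = 8) and in Al 232 ± 30.3 (SD, n = 8), with log2 fold changes of 0.48 and 0.47; both were called higher. Psma1, the alpha ring gene with the weakest evidence in the 6-group test, measured 80.6, 90.8 and 96.6 CPM in Ta and 102.1, 111.8 and 128.6 in Pb. These libraries did not overlap either, but the log2 fold change was smaller, at 0.35 ± 0.09 (SE; adjusted p = 0.000919). Psma1 was called higher in Co as well (0.29) and did not pass in W (0.21), Al (0.11) or DU (0.15).

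Psmb5, the chymotrypsin-like active subunit, measured 85.8, 95.7 and 101.6 CPM in Ta, and 179, 204 and 264 in Pb. In Al it measured 137.6, 172.9 and 185.3, in DU 120.2, 146.9 and 180.3 and in Co 119.7, 135.4 and 160.7 CPM, and in W 97.1, 122.4 and 157.5. Every Pb, Al, DU and Co library lay above every Ta library, as did 7 of 8 W libraries. Psmb5 was called higher in all 5 metals, with log2 fold changes of 1.16 ± 0.09 (Pb; SE; adjusted p = 1.41e-14), 0.81 (Al), 0.64 (DU), 0.53 (Co) and 0.36 (W; adjusted p = 0.0317).

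Psmb6, the caspase-like subunit, had the largest core change: 58.6, 66.0 and 92.1 CPM in Ta against 146, 156 and 210 in Pb. The groups did not overlap, although the highest Ta library, replicate 7, stood well above the other Ta libraries. The log2 fold changes were 1.28 ± 0.10 in Pb (SE; adjusted p = 1.42e-13), 0.84 in Al, 0.76 in DU and 0.56 in Co, all called higher, and 0.32 in W (adjusted p = 0.0664), which did not pass. Psmb7, the trypsin-like subunit, measured 96.8, 105 and 119 CPM in Ta and 206, 223 and 272 in Pb. All libraries of Co, Al, Pb and DU lay above every Ta library, and 6 of 8 W libraries did; log2 fold changes were 1.12 ± 0.08 in Pb (SE; adjusted p = 1.61e-14), 0.70 in Al, 0.60 in Co, 0.51 in DU and 0.36 in W, all called higher. Psmb2, the beta ring gene with the weakest evidence, measured 49.6, 53.8 and 70.9 CPM in Ta and 83.1, 90.7 and 120 in Pb, a log2 fold change of 0.73 ± 0.09 (SE; adjusted p = 1.21e-08).

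**Figure D2:**
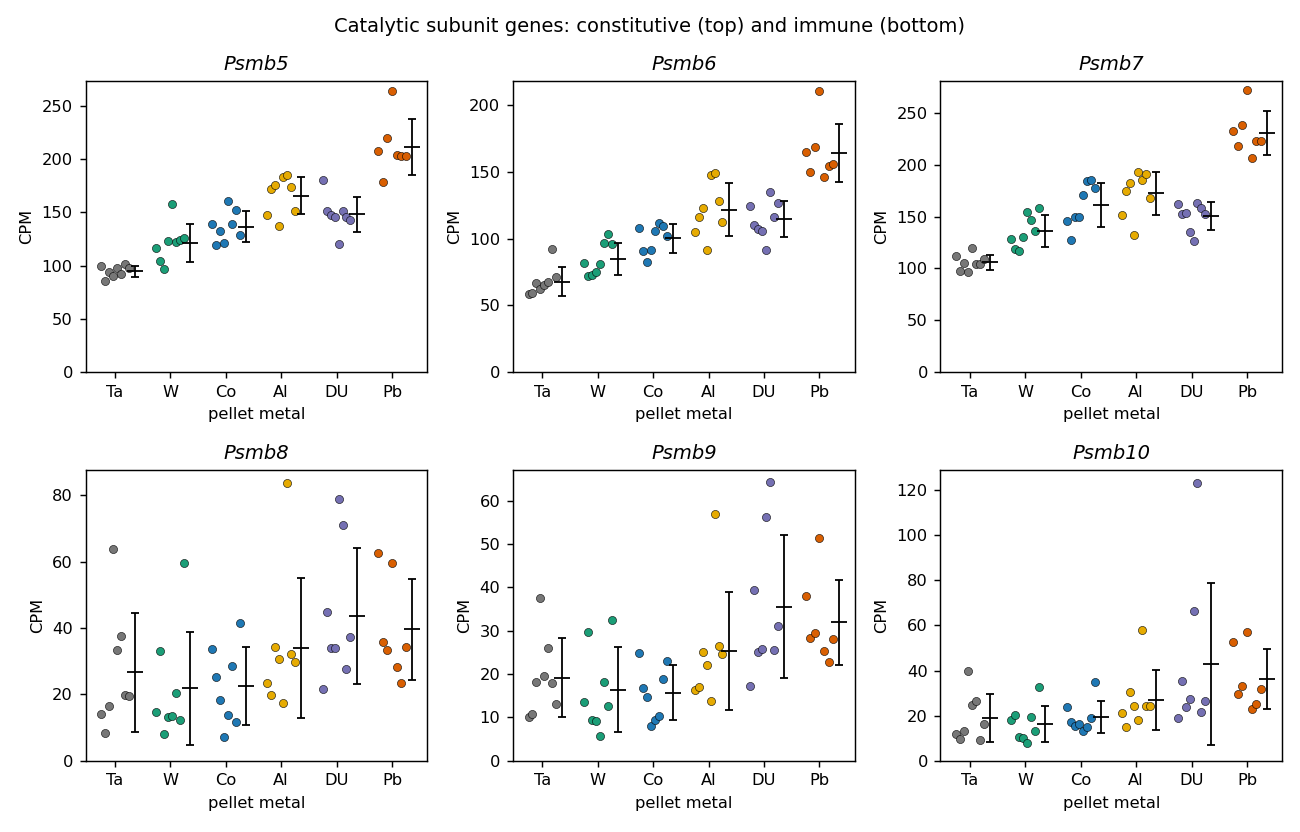
CPM (vertical axes) in each library by pellet metal for the 3 constitutive catalytic genes (top) and the 3 immune catalytic genes (bottom); points are libraries, and the black marks are means with SD (n = 8, and 7 for Pb). Every Pb library lies above every Ta library in the top row, whereas in the bottom row the Ta and Pb libraries overlap.

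These core levels moved with a wider balance in the libraries. The balance subtracts the mean log2 CPM over 44 very large protein genes from the same mean over 74 genes of ribosomal proteins. It was 1.75 ± 0.29 (SD, n = 8) in Ta, 2.23 ± 0.29 in W, 2.51 ± 0.33 in DU, 2.695 ± 0.469 in Co, 2.78 ± 0.48 in Al and 3.64 ± 0.49 (SD, n = 7) in Pb. The mean log2 CPM of the 14 core genes stood in the same order: 6.55 in Ta, 6.84 in W, 6.96 in DU, 6.98 in Co, 7.02 in Al and 7.41 in Pb. Higher calls were not particular to proteasome genes. Of the 74 ribosomal protein genes, 74 were called higher with Pb (median 1.10), 70 with Co, 69 with Al, 69 with DU and 5 with W. Over all genes these shares were 24.5%, 13.6%, 12.8%, 7.89% and 1.42%. Of the 44 very large protein genes, 36 were called lower and 0 higher with Pb (median -0.59), against 29.2% and 24.5% of all genes. With the balance as a covariate in the fit, few calls stayed: 0 of 5 in W, 1 of 35 in Co, 3 of 31 in Al, 3 of 42 in Pb and 7 of 26 in DU. Calls over all genes fell as well, from 283 to 0 in W, 4089 to 21 in Co, 3996 to 290 in Al, 8517 to 438 in Pb and 2424 to 747 in DU.

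The 3 genes that stayed called in Pb were Psmb5, Psmb6 and Psmb7, at log2 fold changes of 0.67, 0.56 and 0.55, and the same 3 stayed in Al at 0.54, 0.44 and 0.38. In Co, Psmb7 stayed at 0.31. In DU the 7 genes were Psmb5, Psmb6, Psmb7, Psmb3, Psmb4, Psmc5 and Psmg4. With the covariate the median log2 fold change in Pb was 0.027 for the 48 genes, 0.16 for the 14 core genes and 0.0091 for the cap genes, against -0.03 over all genes. The balance differs between Ta and each metal, so such a fit cannot fully separate it from the metal, and its part in the core result was not tested. Markers of endothelium (11 of 12) and of podocytes (10 of 10) were called lower in Pb, with medians of -1.68 and -2.14. So were 7 of 10 fibroblast and pericyte, 7 of 13 proximal tubule and 5 of 7 thick limb and distal tubule markers, against 29.2% of all genes. Of 8 collecting duct markers, 3 were called higher and 1 lower in Pb, with a median of 0.09, against 24.5% and 29.2% of all genes. In Al 8 of 12 endothelial and 8 of 10 podocyte markers were lower, and in Co 4 of 12 and 4 of 10, against 12.4% and 12.2% of all genes. In DU 0 of 12 endothelial markers were lower and 1 was higher, with a median of 0.19. There 1 of 10 podocyte markers was lower, with a median of -0.38, against 7.39% of all genes. In W 0 of the endothelial and 0 of the podocyte markers were called, with medians of -0.60 and -0.72. The part of these markers in the core result was not tested.

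**Figure D3:**
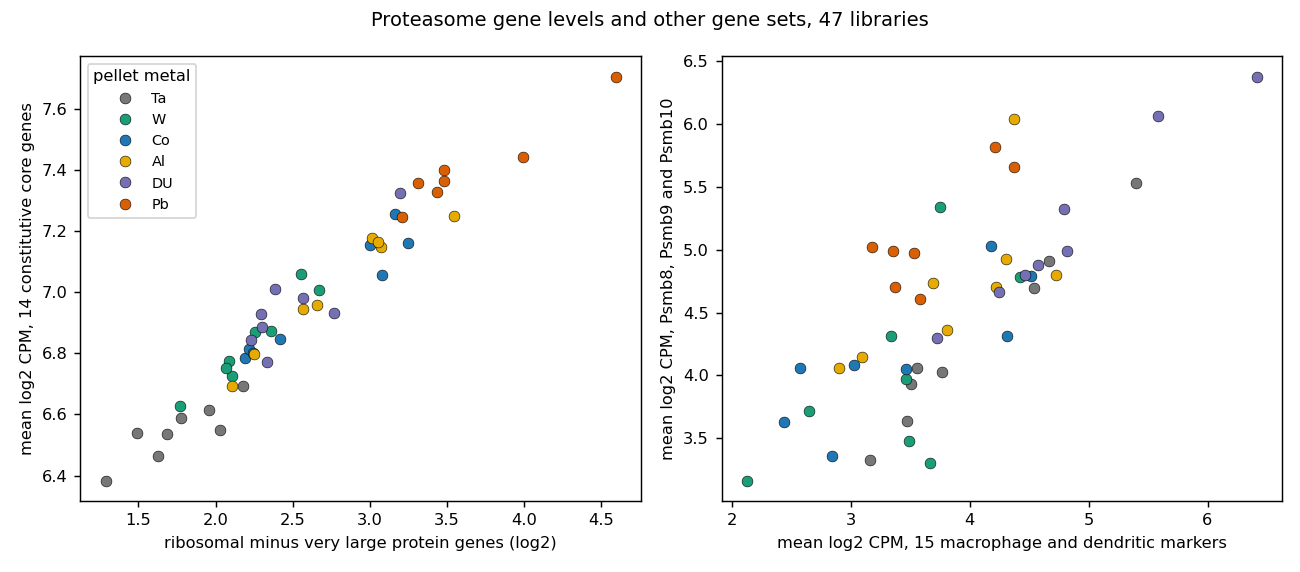
Left, mean log2 CPM of the 14 core genes (vertical axis) against the balance of ribosomal to very large protein genes (horizontal axis, log2); right, mean log2 CPM of Psmb8, Psmb9 and Psmb10 against that of 15 macrophage and dendritic cell markers. Points are the 47 libraries; on the left Ta lies lowest and Pb highest on average, and on the right the highest library is DU replicate 6.

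Fewer calls were made among the immune catalytic genes, whose standard errors were larger than those of the constitutive ones. Psmb8 passed in no metal, Psmb9 was called higher in DU only, and Psmb10 was called higher in Pb and DU. In W, Co and Al none of the 3 passed, the smallest unadjusted p being 0.138, and in W Psmb8, Psmb9 and Psmb10 gave -0.28, -0.22 and -0.20. Without Ta replicates 4 to 6 these W values were 0.51, 0.25 and 0.48, so their sign rests on those libraries. The difference between metals in these 3 genes was tested among the 5 metals: Psmb9 and Psmb10 passed (adjusted p = 0.00279 and 0.0026) and Psmb8 did not (0.0602).

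Psmb8 measured 8.46, 19.7 and 63.8 CPM in Ta, 23.5, 34.3 and 62.6 in Pb and 21.8, 35.7 and 78.9 in DU. All Pb libraries and 6 of 8 DU libraries lay within the range of Ta, and the log2 fold changes of 0.57 ± 0.39 in Pb (SE; adjusted p = 0.219) and 0.71 ± 0.38 in DU (SE; adjusted p = 0.21) did not pass. Psmb9 measured 10.2, 18.1 and 37.5 CPM in Ta and 17.3, 28.4 and 64.2 in DU. Its groups overlapped, with 7 of 8 DU libraries above the Ta median and 3 above every Ta library, and the log2 fold change was 0.89 ± 0.31 (SE; adjusted p = 0.0455). In Pb it was 0.73 ± 0.32 (SE; adjusted p = 0.0514), with all 7 libraries above the Ta median.

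Psmb10 measured 9.07, 14.9 and 39.8 CPM in Ta, 23.2, 31.9 and 57.0 in Pb and 18.8, 27.1 and 123.3 in DU. All 7 Pb and all 8 DU libraries were above the Ta median, 2 of each above every Ta library, and the log2 fold changes were 0.93 ± 0.35 (SE; adjusted p = 0.0225) and 1.18 ± 0.34 (SE; adjusted p = 0.0136). The DU value leans on replicate 6, at 123.3 CPM; without that library the adjusted p was 0.10 for Psmb10 and 0.117 for Psmb9. The Psmb9 call was lost in 10 of the fits that leave out 1 library. In Pb, Psmb10 lost its call in 2 of the fits that leave out 1 library, the largest adjusted p being 0.0668 without Pb replicate 4, and with the balance covariate its value was -0.85 (adjusted p = 0.345).

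In Ta, DU, Al and Pb the libraries highest for immune catalytic genes also had the largest summed level of macrophage and dendritic cell markers. This did not hold in W, nor in Co for Psmb8 and Psmb10. Psmb9 in Co was highest in replicate 1, at 24.9 CPM, which also had the largest marker sum of Co. Psmb8 was highest among Ta libraries in replicates 4, 6 and 5, at 63.8, 37.6 and 33.4 CPM, whereas the other 5 ranged from 8.46 to 19.7. The summed level of the 15 macrophage and dendritic markers was 2191, 1293 and 1159 CPM in those 3 Ta libraries and 688 to 1007 in the other 5. In DU replicates 5 and 6 it was 1986 and 1924 CPM, against 624.9 to 1466 in the other 6. Al replicate 6 was highest of Al in all 3 immune catalytic genes (Psmb8 at 83.7 CPM) and in the marker sum, at 1121 CPM. Pb replicates 1 and 4 were likewise highest of Pb, with Psmb8 at 62.6 and 59.5 CPM and marker sums of 1003 and 997 CPM. W replicate 8 had the highest Psmb8 level of W, at 59.7 CPM, with a marker sum of 648 CPM, within the 408 to 1086 of the other W libraries. Co replicate 8 had the highest of Co, at 41.5 CPM, with a marker sum of 773, below the 1099 of Co replicate 1. Cd74 makes up much of the sum (mean 734 CPM in Ta), and the mean log2 CPM of the 15 markers orders some libraries otherwise. By that mean W replicate 8, at 3.75, stood next below W replicate 2, at 4.42. Al replicate 6, at 4.38, then stood below Al replicate 7, at 4.73. With DU, 5 of the 15 markers were called higher and 0 lower, against 7.89% and 7.39% of all genes. With Pb 0 were higher and 5 lower, and the latter is close to the 29.2% of all genes; Klrb1 of the T and NK cell list was at 0 in 45 of 47 libraries. With the immune marker mean as a covariate neither Psmb9 nor Psmb10 stayed called in DU, whereas Psmb10 stayed called in Pb. What the markers add to the immune catalytic levels was not tested.

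The ratio of each immune gene to its constitutive counterpart, was taken within each library on CPM plus 0.5. Against Ta, none of the 15 ratio tests passed in an exact two-sided permutation test with Benjamini-Hochberg adjustment, and 1 had an unadjusted p under 0.05. That was Psmb9 to Psmb6 in Co, where the mean log2 ratio was -2.73 ± 0.59 (SD, n = 8) against -1.90 ± 0.63 (SD, n = 8) in Ta. The difference of -0.82 (exact permutation p = 0.0171, adjusted p = 0.256) had all 8 Co libraries below the Ta median. In Pb the same ratio differed from Ta by -0.48, with 6 of 7 libraries below the Ta median (exact permutation p = 0.0668, adjusted p = 0.317). In DU the differences were 0.19 for Psmb8 to Psmb5, 0.12 for Psmb9 to Psmb6 and 0.53 for Psmb10 to Psmb7. Without DU replicates 5 and 6 the first 2 were -0.15 and -0.19, and without DU replicate 5 alone 0.0089 and -0.039. A p that misses the threshold does not show equal ratios.

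**Figure D4:**
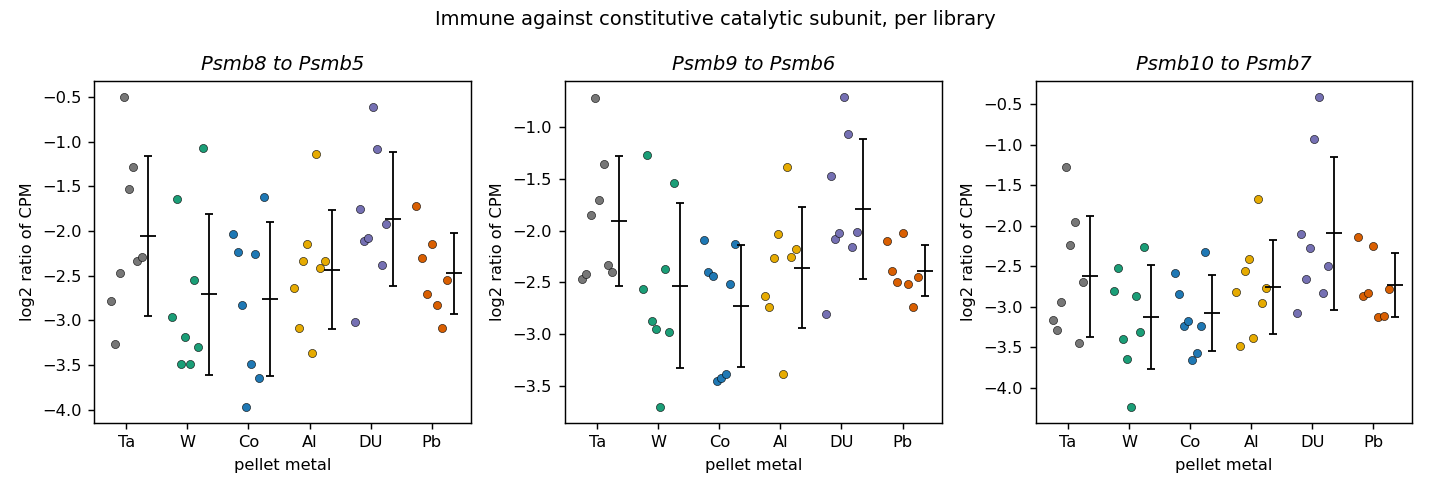
Log2 ratio of CPM of each immune catalytic gene to its constitutive counterpart (vertical axes) in each library, by pellet metal; black marks are means with SD (n = 8, and 7 for Pb). The groups overlap in all 3 panels, and DU reaches -0.40 in the Psmb10 to Psmb7 panel.

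Of the 17 cap genes, 14 were called higher with Pb and 1 lower, against 24.5% and 29.2% of all genes. With Co 13 were higher, with Al 10, with DU 7 and with W 2, against 13.6%, 12.8%, 7.89% and 1.42%. The median log2 fold change of the cap genes was 0.52 with Pb, 0.31 with Co, 0.26 with Al, 0.21 with DU and 0.18 with W. All 6 base ATPase genes were higher with Pb and Co. Psmc5, one of these unfolding ATPases, measured 80.9, 89.0 and 104.5 CPM in Ta and 152, 166 and 191 in Pb, without overlap, a log2 fold change of 0.90 ± 0.08 (SE; adjusted p = 8.29e-12). It was called higher in all 5 metals. Psmc6, the ATPase with the weakest evidence, measured 66.4, 73.1 and 78.2 CPM in Ta and 78.4, 86.2 and 105 in Pb, a log2 fold change of 0.27 ± 0.08 (SE; adjusted p = 0.00229).

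The non-ATPase genes of the base differed among themselves. Psmd4, a ubiquitin receptor, measured 74.97, 98.8 and 127.7 CPM in Ta and 162, 181 and 196 in Pb, a log2 fold change of 0.83 ± 0.09 (SE; adjusted p = 4.26e-10). Psmd1, the large scaffold of the base, measured 125.03, 137.5 and 159.7 CPM in Ta and 130.6, 142.4 and 165.2 in Pb. Its libraries overlapped almost fully and the log2 fold change was 0.03 ± 0.08 (SE; adjusted p = 0.767); it passed in no metal, and its RefSeq span overlaps Htr2b.

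Of the 8 lid genes, 6 were called higher and 1 lower with Pb, against 24.5% and 29.2% of all genes. Psmd6 measured 77.9, 94.9 and 100.6 CPM in Ta, 102.2, 106.6 and 144.9 in W and 112.8, 125.05 and 159.0 in Pb, and every W, Co and Pb library lay above every Ta library. In Pb its log2 fold change reached 0.50 ± 0.08 (SE; adjusted p = 8.79e-07) and 0.28 in W (adjusted p = 0.0478). Psmd11, a clamp between lid and base, went the other way: 63.3, 69.1 and 80.4 CPM in Ta and 54.4, 58.5 and 68.0 in Pb, with 5 of 7 Pb libraries below every Ta library. The log2 fold change was -0.22 ± 0.08 (SE; adjusted p = 0.0219), and the call was lost in 4 of the fits that leave out 1 library, up to 0.0836 without Ta replicate 1. Psmd3 had a log2 fold change of 0.08 in Pb and passed in no metal.

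The 3 chaperones that assemble the cap base also differed. Psmd9 measured 16.3, 23.3 and 32.5 CPM in Ta and 30.4, 34.8 and 40.5 in Pb, and its log2 fold change of 0.53 ± 0.10 (SE) passed. Psmd5 measured 39.8, 43.6 and 59.2 CPM in Ta and 41.9, 49.2 and 56.7 in Pb, a log2 fold change of 0.14 ± 0.10 (SE; adjusted p = 0.239), and it passed in no metal. Psmd10 was called higher in Co, Al, Pb and DU, at 0.65 in Pb.

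The activators split in direction. Psme1 and Psme2 encode the interferon-induced cap that opens the core from one end. Psme1 measured 157, 187 and 206 CPM in Ta and 276, 294 and 404 in Pb, a log2 fold change of 0.81 ± 0.10 (SE; adjusted p = 1.21e-08). It was called higher in Co, Al, Pb and DU. The Co call was lost in 3 of the fits that leave out 1 library, and the DU call with the immune covariate (adjusted p = 0.0875). Psme2 measured 50.8, 65.3 and 83.96 CPM in Ta and 99.4, 113 and 147 in Pb, a log2 fold change of 0.85 ± 0.14 (SE), and 73.9, 86.7 and 166 in DU, a log2 fold change of 0.59 ± 0.13 (SE; adjusted p = 0.00183). Every Pb library lay above every Ta library for both genes. With the balance covariate neither gene was called in any metal. Psme2 was then -0.17 in Pb, -0.22 in Co and -0.065 in Al, and Psme1 was 0.0087 in Pb, -0.11 in Co and -0.017 in Al.

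Psme3, the nuclear activator, measured 42.5, 48.9 and 55.1 CPM in Ta and 38.7, 40.3 and 43.5 in Pb, with 6 of 7 Pb libraries below every Ta library. The log2 difference from Ta was -0.27 ± 0.08 (SE; adjusted p = 0.00217), the largest decrease among the 48 genes in Pb. Psme4, the single-chain activator known as PA200, measured 154, 174 and 190.0 CPM in Ta, 128.5, 151.8 and 166.6 in Al and 113, 147 and 172 in Pb. It was called lower in Pb (-0.25 ± 0.07, SE; adjusted p = 0.00366) and in Al (-0.21 ± 0.07, SE; adjusted p = 0.0262), and the Al call was lost in 9 of the fits that leave out 1 library, up to 0.0971 without Ta replicate 2. The fitted values of Psme3 and Psme4 were negative in all 5 metals, except that Psme4 in W was 0.011 with the balance covariate and crossed 0 in 2 of the fits that leave out 1 library.

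**Figure D5:**
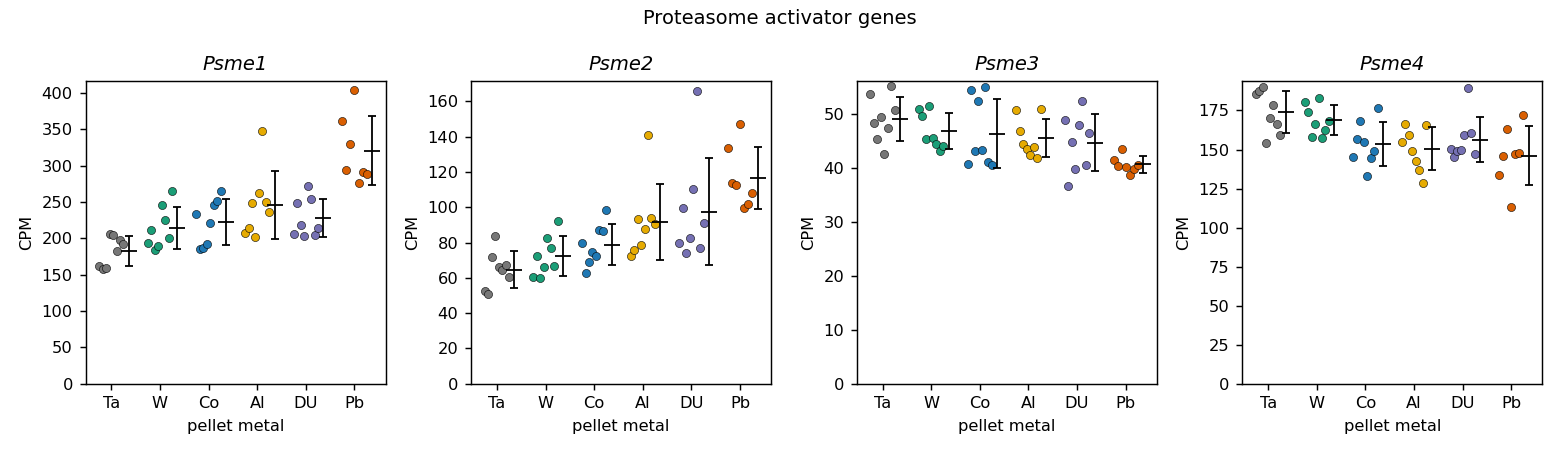
CPM (vertical axes) of the 4 activator genes in each library by pellet metal, with means and SD (n = 8, and 7 for Pb). On average Pb lies highest for Psme1 and Psme2 and lowest for Psme3 and Psme4.

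The inhibitor gene Psmf1 measured 42.0, 44.3 and 49.9 CPM in Ta and 51.6, 56.2 and 67.6 in Pb, without overlap, and was called higher in Co, Al and Pb, at 0.33 ± 0.07 (SE) in Pb. It had a log2 fold change of -0.01 in DU. The 4 chaperones that build the core, Psmg1 to Psmg4, were all called higher with Pb, Co and Al, and 3 of them with DU. The shares of all genes were 24.5%, 13.6%, 12.8% and 7.89%. Psmg4 measured 8.70, 14.04 and 16.5 CPM in Ta, 21.2, 25.0 and 31.6 in DU and 26.3, 32.8 and 50.3 in Pb, without overlap of either with Ta. Its log2 fold change in Pb was 1.31 ± 0.14 (SE; adjusted p = 1.1e-10), the largest of the 48 genes, and 0.88 ± 0.13 in DU (SE; adjusted p = 4.95e-06). Psmg3 changed by 1.23 in Pb and by 0.61 in W, where it was called. Psmg2 measured 15.3, 18.4 and 27.9 CPM in Ta and 29.1, 31.0 and 34.8 in Pb, a log2 fold change of 0.69.

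Among 8 proteasome parts not named Psm, 5 were called higher and 1 lower with Pb, against 24.5% and 29.2% of all genes. Their median was 0.50. Sem1, a small lid protein, changed by 1.72 (mean 138.3 CPM against 41.9 in Ta), Pomp, which matures the core, by 1.21 and Adrm1, a ubiquitin receptor, by 0.76. Ube3c, a ubiquitin ligase at the proteasome, was lower (-0.68) and was named after its value was seen. Sem1 and Pomp were also called in W, at 0.51 and 0.38.

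Of 19 ubiquitin and shuttle genes, 8 were called higher and 8 lower with Pb, against 24.5% and 29.2% of all genes. Over the 19 genes the changes in Pb ran from -1.10 to 1.14, with a median of 0.015. The shuttle genes Ubqln2 and Ubqln1 changed by -0.91 and -0.64. Of 9 genes of proteasome transcription, 0 were higher and 5 lower with Pb, against the same shares of all genes. Nfe2l1 had a mean of 81.9 CPM in Pb against 140 in Ta (log2 fold change -0.77 ± 0.10, SE; adjusted p = 3e-08), Stat3 changed by -0.94 and Nfya by -0.64. None of the 9 was called higher in any metal.

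Of 12 antigen processing genes, 2 were higher and 3 lower with Pb, shares below the 24.5% and 29.2% of all genes. Canx, an endoplasmic reticulum chaperone, changed by -0.79 and Calr, another chaperone there, by 0.29, and Tap1 and Tap2 did not pass. Of 19 interferon response genes tested, 1 was higher and 5 lower with Pb, again below the shares of all genes. The lowest values were those of Ifit2 (-2.10), Rsad2 (-1.94) and Mx1 (-1.76). With DU, 1 of the 19 was higher, Socs1 at 1.40, and 0 were lower, both below the 7.89% and 7.39% of all genes.

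Some values carry added uncertainty. For 19 of the 50 genes the RefSeq table names copies, 52 in all, with 10 for Psmb3 and 5 for Psma6. Genes described above are among them: Psme3 has 4, Psmb6, Psma7, Psme1, Psme2 and Psmg4 have 3 each, and Psmb7 has 2. How reads that match several places were counted is not given in the sources used here. For 8 genes the RefSeq span overlaps another gene of the count table.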

How the data were processed

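The deposited table holds raw counts, which per the submitters' processing notes the authors made with STAR 2.7.2a on mRatBN7.2 and featureCounts of Subread 1.6.4. The annotation, the strand setting and the handling of multimapping reads are not given in the sources used here. A total of 29 lines that name no gene held at most 0.0558% of a library's counts and were left out.

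Genes were kept by filterByExpr, scaled by TMM and tested in 1 fit over 47 libraries with edgeR 4.0.16 (R 4.3.3), quasi-likelihood F test, two-sided, Benjamini-Hochberg over all 15868 genes, threshold 0.05. Ratios used CPM plus 0.5 and scipy 1.17.1. Alternatives were DESeq2 1.42.0, voom of limma 3.58.1, other scaling, filters (strict: 1 CPM in 7 libraries), a replicate block, 2 covariates (one of 28 immune markers) and libraries left out; log CPM used a prior count of 2.

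The members, lists and settings were chosen with earlier results of these data known. Catalytic and activator genes, and in each other class the genes with the smallest and the largest p across 6 groups, were named, besides members against their class and up to 3 genes per other list; some of the latter are not reported here. Labels give no more than an animal number per library, so p-values measure the spread between these samples. In simulated data for Pb against Ta on 15684 genes, 67 genes were changed 1.5 times, 67 changed 2 times and 66 changed 4 times. The fit recovered 41.8%, 70.1% and 87.9% of them, with 4 false calls. In the data 8517 genes were called in Pb, far more than were changed in the simulation, so these rates may not hold there. Sequences are from RefSeq, build GRCr8; all 50 symbols matched its gene table.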

Additional observations from a re-analysis of the deposited data

Results flagged for a closer look

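For 13 of 162 groups of the named genes and ratios, 1 library stood apart from the rest of its group by Dixon's criterion at the 95% level; chance gives about 1 in 20 groups. Psma1 was highest in DU replicate 6, at 139.6 CPM, with the others of that group at 87.9 to 101.5. Psmb2 was highest in Pb replicate 4, at 120.1 CPM, with the others of that group at 83.1 to 94.6. Psmb6 was highest in Ta replicate 7, at 92.1 CPM, with the others of that group at 58.6 to 71.1. Psmb6 was highest in Pb replicate 4, at 210.3 CPM, with the others of that group at 146.2 to 168.5. Psmb8 was highest in Al replicate 6, at 83.7 CPM, with the others of that group at 17.3 to 34.4. Psmb9 was highest in Al replicate 6, at 56.8 CPM, with the others of that group at 13.7 to 26.4. Psmd1 was highest in DU replicate 6, at 189.9 CPM, with a median of 130.6 in the others of that group. Psmd5 was highest in Ta replicate 8, at 59.2 CPM, with the others of that group at 39.8 to 45.4. Psmd6 was highest in W replicate 5, at 144.9 CPM, with the others of that group at 102.2 to 116.5. Psme2 was highest in Al replicate 6, at 140.8 CPM, with the others of that group at 72.6 to 93.6. Psme4 was highest in DU replicate 6, at 189.2 CPM, with the others of that group at 145.1 to 160.6. Psmg2 was lowest in Al replicate 4, at 18.0 CPM, with the others of that group at 24.5 to 30.9. Psmg4 was lowest in Co replicate 4, at 11.9 CPM, with the others of that group at 18.7 to 26.4. The part that these libraries play in the comparisons is given by the fits that leave them out.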

How the results depend on the processing

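The counts in W depend most on the settings. Against 5 members and 283 genes called, DESeq2 gave 12 and 764, the strict filter 11 and 562, and leaving out DU replicates 5 and 6, chosen after seeing the data, 21 and 1121. Voom gave 3 members, fits of only the groups compared 3, and no filter 117 genes. The immune covariate gave 0 members and 2 genes, leaving out Ta replicates 4 to 6 gave 0 and 1, and the balance covariate 0 and 0. Leaving out 1 library gave 0 (without W replicate 5) to 12 (without W replicate 3) members and 5 to 604 genes. With the balance covariate members higher and all genes called fell to 1 and 21 in Co, 3 and 290 in Al, 3 and 438 in Pb and 7 and 747 in DU, members lower to 0 in Al and 0 in Pb, with 1 in DU, and members called to 20 across 6 groups and 19 among the 5 metals. Without Ta replicates 4 to 6, 2669 genes were called in Co and 0 members were lower in Al. Voom called 2 members lower in Al, 2 lower in DU and 4548 genes in DU. Leaving out 1 library gave 0 to 1 members lower in Al and 0 to 1 in Co. Calls of members kept in every such fit numbered 0 (W), 30 (Co), 26 (Al), 40 (Pb) and 20 (DU). The causes were not tested. The following log2 fold changes changed sign. Under the balance covariate they were Psmb8 -0.66 (Al) and -1.27 (Pb), Psmb9 -0.40 (Al) and -0.70 (Pb), Psmb10 -0.79 (Co), -0.46 (Al) and -0.85 (Pb). Further values were Psme1 -0.11 (Co) and -0.017 (Al), Psme2 -0.10 (W), -0.22 (Co), -0.065 (Al) and -0.17 (Pb), Psme4 0.011 (W). Further values were Psma1 -0.00054 (Co), -0.20 (Al), -0.21 (Pb) and -0.075 (DU), Psmc6 -0.011 (W), -0.021 (Co), -0.19 (Al), -0.21 (Pb) and -0.16 (DU), Psmd1 -0.024 (W), -0.058 (Co) and -0.28 (Pb). Further values were Psmd6 -0.077 (DU), Psmd3 -0.14 (Al), -0.24 (Pb) and -0.13 (DU), Psmd9 -0.079 (Co) and -0.060 (Al). Further values were Psmd5 -0.027 (Co), -0.16 (Al) and -0.28 (Pb), Psmf1 -0.011 (Co), -0.068 (Al) and -0.13 (Pb). Under the immune covariate they were Psmb8 0.45 (W) and 0.45 (Co), Psmb9 0.26 (W) and 0.25 (Co), Psmb10 0.43 (W), Psmd1 0.0021 (DU). Further values were Psmf1 0.021 (DU). Without Ta replicates 4 to 6 they were Psmb8 0.51 (W) and 0.56 (Co), Psmb9 0.25 (W) and 0.20 (Co), Psmb10 0.48 (W), Psmd9 0.040 (W). Further values were Psmb8 to Psmb5 0.20 (Al) and 0.16 (Pb), Psmb10 to Psmb7 0.027 (Co), 0.35 (Al) and 0.38 (Pb). Without DU replicates 5 and 6 they were Psmd1 0.014 (Al), Psmd9 0.016 (W), Psmb8 to Psmb5 -0.15 (DU), Psmb9 to Psmb6 -0.19 (DU). Under DESeq2 they were Psmd1 0.00032 (Al) and 0.012 (DU), Psmf1 0.025 (DU). Under RLE factors they were Psmd1 0.00032 (Al) and 0.012 (DU), Psmf1 0.025 (DU). Under voom they were Psmc6 -0.026 (DU), Psmd3 -0.059 (DU), Psmd9 0.011 (W). In fits of only the groups compared they were Psmd1 0.0032 (Al), Psmf1 0.0037 (DU). Under the strict filter they were Psmd1 0.012 (Al) and 0.0065 (DU), Psmd9 0.014 (W), Psmf1 0.021 (DU). Leaving out 1 library at a time gave -0.70 to 0.067 for Psmb8 in W, -0.42 to 0.11 for Psmb8 in Co, -0.44 to 0.017 for Psmb9 in W, -0.42 to 0.076 for Psmb10 in W, -0.14 to 0.31 for Psmb10 in Co, -0.061 to 0.0031 for Psme4 in W. It gave -0.022 to 0.027 for Psmd1 in Al, -0.0086 to 0.059 for Psmd1 in Pb, -0.073 to 0.020 for Psmd1 in DU, -0.014 to 0.061 for Psmd3 in DU, -0.050 to 0.061 for Psmd9 in W, and -0.15 to 0.016 for Psmd5 in DU, -0.023 to 0.039 for Psmf1 in DU, -0.039 to 0.29 for Psmb9 to Psmb6 in DU, -0.29 to 0.062 for Psmb10 to Psmb7 in Al, -0.22 to 0.088 for Psmb10 to Psmb7 in Pb. Replicate numbers did not pair libraries: the median residual correlation of 115 pairs with the same number was 0.0116 (-0.353 to 0.36). With a replicate block members higher numbered 5 (W), 35 (Co), 30 (Al), 40 (Pb) and 25 (DU). All other counts of members and genes stayed within 1.5 times of the values in the report. Depth limits genes near 1 CPM, and the lowest value of a named member was 5.74 CPM (Psmb9 in W). None of 161 pairs of libraries within groups was a copy.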
